A study of Mus musculus with 6 samples.

Results

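S1pr1, a receptor for the signalling lipid sphingosine-1-phosphate (S1P), and 9 genes of the same receptor family or of blood vessel endothelium were followed in RNA that was precipitated with ribosomes carrying phosphorylated ribosomal protein S6 (pS6). The 10 genes are S1pr1, S1pr2, S1pr3, Pecam1, Cdh5, Kdr, Flt1, Tek, Tie1 and Emcn, chosen by name from the 38561 gene rows of the count table, and all 10 were found and passed the filter on low counts. S1pr1 was chosen because its level was lower after pup exposure in these same libraries, so its own difference is given as a description and without a test. The others were chosen because they mark the vessel wall or belong to the S1P receptor family, to set the level of S1pr1 beside vessel content. The tissue was the vomeronasal organ, the pheromone-sensing organ of the nose, from male mice of the outbred CD-1 stock. Pup-exposed males gave 3 libraries and control-exposed males gave 3. The control is named but not described, and no genotype, age or duration is stated. All 6 libraries were precipitates, and no input RNA was analysed here, so a level is the amount in the precipitate and combines RNA abundance with the share of ribosomes that carried pS6.

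S1P is made by sphingosine kinases, leaves cells through dedicated transporters and signals through a family of G protein-coupled receptors. S1pr1 couples to Gi proteins, strengthens contacts between endothelial cells and guides the exit of lymphocytes from lymphoid organs, while S1pr2 and S1pr3 also couple to other G proteins and are found in mural cells as well as endothelium. Phosphorylation of S6 rises in active neurons and in other cells with active growth signalling, so precipitation with it enriches RNA of such cells. Outside vessels, S1pr1 is known in astrocytes and immune cells. In the vomeronasal organ a large vein surrounded by smooth muscle works as a pump that draws stimuli into the lumen, so vessels are a prominent part of the tissue.

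The 3 S1P receptor genes are related, so the sequences that bear on whether reads can be told apart are shown first. These are the stretches of coding sequence at which S1pr1 is most like each of the other receptors, taken from the GENCODE M21 transcripts on the GRCm38 build, with the longest run of identical bases in capitals and 20 bases on either side. The S1pr1 stretch set against S1pr3 lies at chr3:115712372-115712425 on the minus strand, and the S1pr3 stretch at chr13:51419288-51419341 on the plus strand.
S1pr1: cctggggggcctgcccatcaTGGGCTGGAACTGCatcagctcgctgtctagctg
S1pr3: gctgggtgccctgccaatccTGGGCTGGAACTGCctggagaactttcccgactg
The S1pr1 stretch set against S1pr2 lies at chr3:115712340-115712394, and the S1pr2 stretch at chr9:20967963-20968017, both on the minus strand.
S1pr1: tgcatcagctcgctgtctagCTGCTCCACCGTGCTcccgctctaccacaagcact
S1pr2: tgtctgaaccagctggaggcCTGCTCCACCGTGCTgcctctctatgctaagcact
The longest identical run was 14 bases between S1pr1 and S1pr3 and 15 bases between S1pr1 and S1pr2. When the longest transcript of each of the 10 genes was cut into words of 50 bases, 0% of the words were shared with a transcript of another gene in every case other than S1pr2, where 1.15% were. The counts of S1pr1 are therefore not split with those of its relatives at that read length. No annotated gene that is in the count table overlaps any of the 10.

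The pup exposure libraries held 18199476, 20401434 and 20871266 counts and the control exposure libraries 11240065, 10617461 and 10590716 counts, and every pup exposure library was deeper than every control exposure library. Levels are CPM, the counts of a gene scaled to the library total and adjusted by TMM factors, which reached 1.39 in pup exposure replicate 2 and were lowest, at 0.605, in control exposure replicate 3. Pup exposure replicate 1 stood apart on the first principal component (35.1% of variance), and the second (25.6%) placed pup exposure replicate 2 at its high end and control exposure replicate 3 at its low end. The labels do not say whether libraries came from separate animals, so errors and p-values cover only how these libraries vary, and that variation may be technical.

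S1pr1 (chromosome 3, from 115710433 to 115715072, minus strand) was lower in every pup exposure library. It had 11.5, 12.2 and 16.9 CPM after pup exposure, against 63.3, 71.2 and 70.4 CPM after control exposure. The groups were far apart, and within each of them the 3 libraries lay close together. The means were 13.5 ± 2.98 CPM after pup exposure and 68.3 ± 4.32 CPM after control exposure (SD, n = 3 each), so the control mean was 5.05 times the pup mean. Those CPM rest on 214, 344 and 343 reads after pup exposure and 809, 795 and 451 reads after control exposure, so even the raw read number was lower in the deeper libraries. In edgeR the log2 fold change, pup exposure over control exposure, was -2.34 (SE 0.36), where the median of the 15498 genes tested was 0.030. Of those genes, 48.5% had a negative value, 1306 (8.43%) one of -1 or lower and 161 (1.04%) one of -2 or lower, and S1pr1 ranked 92 from the lowest. Leaving out any one library kept the value between -2.52 and -2.23. In these bulk precipitates fewer cells of a type and less RNA per cell cannot be told apart.

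The other S1P receptors did not share this difference in their values. S1pr3 (chromosome 13, from 51408639 to 51422797, plus strand) had 4.87, 22.0 and 19.3 CPM after pup exposure, against 14.9, 11.5 and 5.15 CPM after control exposure. The groups overlapped, with pup exposure replicate 1 the lowest of all 6 libraries. Its log2 fold change was 0.54 (SE 0.59, edgeR's quasi-likelihood test, Benjamini-Hochberg adjusted over all genes, adjusted p = 0.737). S1pr2 (chromosome 9, from 20962361 to 20976781, minus strand) was low, at 5.14, 2.37 and 0.543 CPM after pup exposure and 0, 0.985 and 2.96 CPM after control exposure. Those values rest on 96, 67 and 11 reads after pup exposure and 0, 11 and 19 reads after control exposure. The 0 came from control exposure replicate 1, where a count of 0 allows up to 0.235 CPM (3 counts, counting error only). Its log2 fold change was 1.07 (SE 1.29, edgeR adjusted p = 0.764), and the groups overlapped. S1pr4, a receptor of blood cells, was seen as 0.0895 CPM in control exposure replicate 2 and at 0 in the other 5 libraries, and S1pr5, a receptor of oligodendrocytes and natural killer cells, reached at most 1.98 CPM, in pup exposure replicate 1. Both were too low to be tested. The number of S1pr1 reads per S1pr3 read was 2.35, 0.552 and 0.879 after pup exposure, against 4.24, 6.16 and 13.7 after control exposure, so S1pr1 outnumbered S1pr3 in all control exposure libraries and in 1 of the 3 pup exposure libraries.

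**Figure D1:**
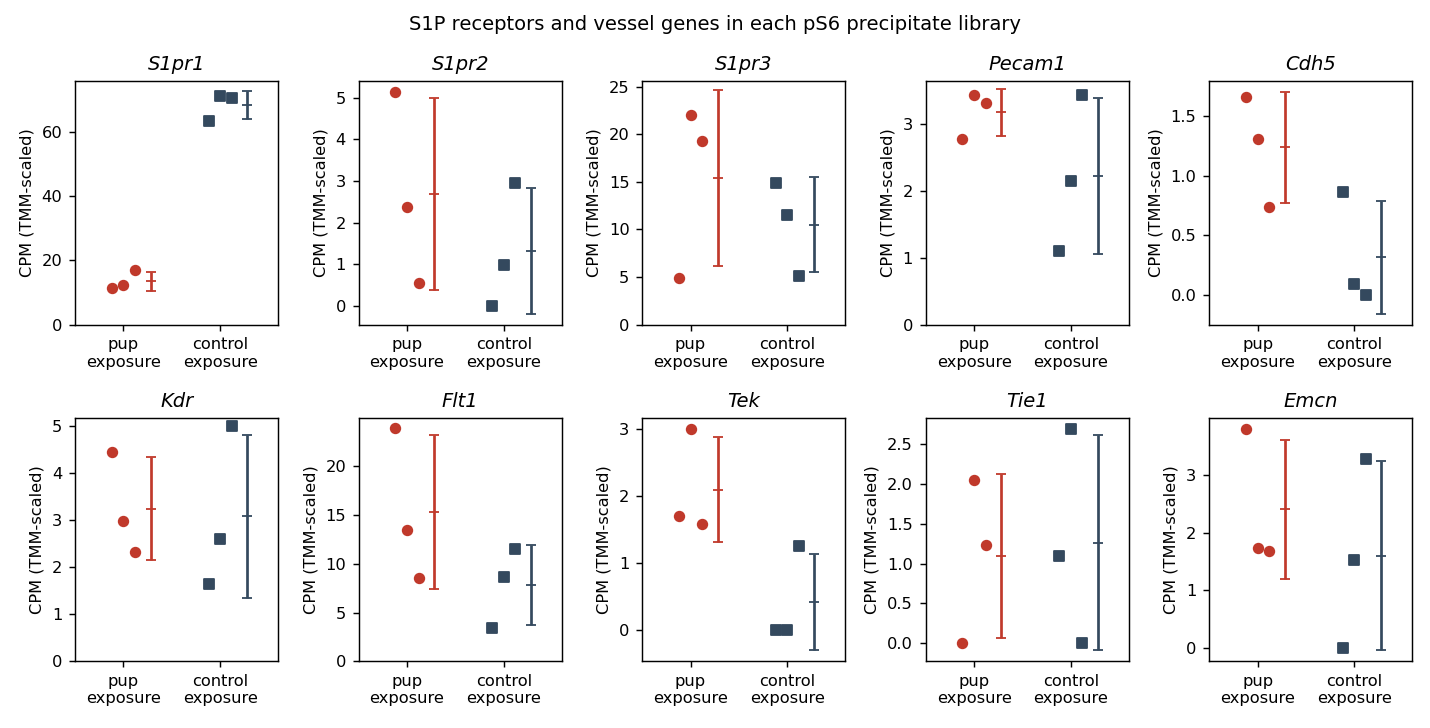
TMM-scaled CPM of each of the 10 genes in each library (circles, pup exposure; squares, control exposure), with the mean and SD of 3 libraries as a bar beside the points; each panel has its own linear scale. S1pr1 lies between 11.5 and 16.9 CPM after pup exposure and between 63.3 and 71.2 CPM after control exposure, while the groups overlap for the other genes apart from Tek.

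The vessel members, in contrast, were low in all libraries, and their values after pup exposure were mostly as high as or higher than after control exposure. Log2 fold changes were above 0 in 6 of the 7 vessel genes and below 0 in 1, with a median of 0.62 beside 0.030 over all genes. That count was 5 when control exposure replicate 1 was left out, and the median was then 0.20, while the median was 1.32 when control exposure replicate 3 was left out. Over the 9 members other than S1pr1, edgeR called 0 higher and 0 lower at an adjusted p under 0.05 (background 0% of 15498 genes in each direction) and 0 at an unadjusted p under 0.05 (6.31% of genes higher and 4.67% lower). DESeq2 called 0 of them, giving no adjusted p for 6, where it called 0.406% of all genes higher and 0.626% lower. Limma-voom called 0, where it called 0.00645% of all genes higher and 0.0452% lower. Tek was the 1 vessel gene whose groups did not overlap, where 10.1% of all genes tested were apart in the same direction and 9.6% in the other.

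Pecam1 and Cdh5 encode adhesion molecules of endothelial junctions. Pecam1 (chromosome 11, from 106654217 to 106750628, minus strand) had 2.78, 3.43 and 3.31 CPM after pup exposure, against 1.10, 2.15 and 3.43 CPM after control exposure. Control exposure replicate 3 matched the highest pup exposure library, and the log2 fold change was 0.53 (SE 0.75, edgeR adjusted p = 0.806). Cdh5, which encodes VE-cadherin (chromosome 8, from 104101625 to 104144511, plus strand), had 1.66, 1.31 and 0.740 CPM after pup exposure and 0.861, 0.0895 and 0 CPM after control exposure. These values rest on 31, 37 and 15 reads after pup exposure and on 11, 1 and 0 reads after control exposure, and overlapped through control exposure replicate 1. Its log2 fold change was 1.84 (SE 1.31, edgeR adjusted p = 0.598).

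Kdr and Flt1 encode receptors for vascular endothelial growth factor (VEGF), Kdr the main signalling receptor and Flt1 one that binds VEGF tightly and limits its action. Kdr (chromosome 5, from 75932827 to 75978458, minus strand) had 4.44, 2.97 and 2.32 CPM after pup exposure and 1.64, 2.60 and 4.99 CPM after control exposure. The ranges covered each other, and the log2 fold change of 0.09 (SE 0.72, edgeR adjusted p = 0.969) turned to -0.21 when control exposure replicate 1 was dropped and to -0.20 when pup exposure replicate 1 was. Flt1 (chromosome 5, from 147561604 to 147726011, minus strand) was the most abundant vessel member, with 23.9, 13.4 and 8.49 CPM after pup exposure against 3.37, 8.59 and 11.5 CPM after control exposure. Pup exposure replicate 1 was the highest, pup exposure replicate 3 fell within the control range, and the log2 fold change was 0.97 (SE 0.56, edgeR adjusted p = 0.522).

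Tek and Tie1 encode the endothelial tyrosine kinases of the angiopoietin pathway, Tek (also called Tie2) the receptor that binds angiopoietins and Tie1 its partner. Tek (chromosome 4, from 94739289 to 94874976, plus strand) had 1.71, 3.01 and 1.58 CPM after pup exposure, against 0, 0 and 1.25 CPM after control exposure. All pup exposure libraries lay above all control exposure libraries, but the control values rest on 8 reads in 1 library, and the log2 fold change of 2.49 (SE 1.48, edgeR adjusted p = 0.538) depends on how the zeros are handled. It was 8.26 without control exposure replicate 3, the library that held those reads. Tie1 (chromosome 4, from 118471191 to 118490061, minus strand) had 0, 2.05 and 1.23 CPM after pup exposure and 1.10, 2.69 and 0 CPM after control exposure. One library of each group held no read of it, and its log2 fold change was -0.22 (SE 1.48, edgeR adjusted p = 0.964), which became 0.88 when control exposure replicate 2 was dropped and 0.35 when pup exposure replicate 1 was. Emcn, a sialoprotein of capillary and venous endothelium (chromosome 3, from 137341067 to 137432185, plus strand), had 3.80, 1.73 and 1.68 CPM after pup exposure and 0, 1.52 and 3.28 CPM after control exposure. Its groups overlapped, and the log2 fold change was 0.62 (SE 1.20, edgeR adjusted p = 0.863).

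The summed level of the 7 vessel genes was 38.3, 27.9 and 19.3 CPM after pup exposure and 8.06, 17.6 and 24.5 CPM after control exposure, a mean of 28.5 ± 9.5 against 16.7 ± 8.25 CPM (SD, n = 3 each). The ranges overlapped, with the lowest sum in control exposure replicate 1, where Tek and Emcn were at 0. Flt1 made up much of the sum, 23.9 of 38.3 CPM in pup exposure replicate 1, and a wider list of 36 endothelial genes ordered the libraries differently, at 215, 155 and 212 CPM after pup exposure and 196, 229 and 240 CPM after control exposure. Among the control exposure libraries S1pr1, at 63.3, 71.2 and 70.4 CPM, differed by much less than the 7-gene sum. Its spread there was nearer to that of the 36-gene sum. Pup exposure replicate 1, with the highest 7-gene sum, had the lowest S1pr1 level of all, 11.5 CPM. Control exposure replicate 1, with the lowest 7-gene sum, had 63.3 CPM of S1pr1. By the 36-gene sum the order at the extremes was the reverse. The lowest library, pup exposure replicate 2, had 12.2 CPM of S1pr1, and the highest, control exposure replicate 3, had 70.4 CPM.

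Set against the 7 vessel genes of its own library, S1pr1 was lower after pup exposure by a wider margin than in CPM, and against 36 other endothelial genes by a narrower one. There were 0.299, 0.435 and 0.875 S1pr1 reads per read of the 7 vessel genes after pup exposure, against 7.85, 4.04 and 2.87 after control exposure, and the groups did not overlap. The means were 0.536 ± 0.301 and 4.92 ± 2.61 (SD, n = 3 each), and the control mean was 9.17 times the pup mean. With every library scaled to its vessel reads in place of TMM, the edgeR log2 fold change of S1pr1 was -3.20, against -2.34 with TMM. That value was -3.07 when Flt1, the most abundant of the 7, was left out of the scaling. Scaled to a list of 36 other endothelial genes it was -2.13. Reads of S1pr1 per read of that list were 0.0533, 0.0787 and 0.0797 after pup exposure, against 0.323, 0.311 and 0.293 after control exposure, again with no overlap. The log2 fold change was below -2 under both scalings. In the control exposure libraries the 7-gene scaling rests on 103, 197 and 157 reads. All these ratios contain the S1pr1 value that chose the gene, and are descriptions. The part of vessel content in the S1pr1 difference was not tested.

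**Figure D2:**
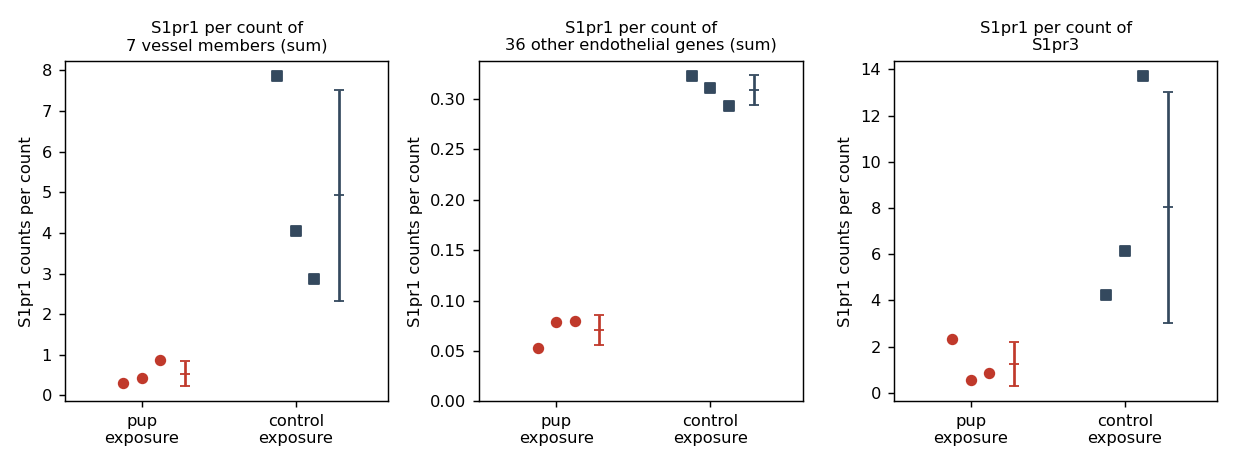
Reads of S1pr1 per read of the 7 vessel genes (left), of 36 other endothelial genes (centre) and of S1pr3 (right) in each library, with the mean and SD of 3 libraries as bars; circles are pup exposure and squares control exposure, on linear scales. In each panel the 3 pup exposure libraries lie below the 3 control exposure libraries.

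Levels were also taken per kilobase of exon, merged over all annotated transcripts of a gene. That length was 3046 bases for S1pr1, the same as its longest transcript. For Flt1 it was 13504 bases, where the longest transcript has 6895. Ratios of S1pr1 to Flt1 would therefore be smaller per kb of longest transcript. On the merged length S1pr1 was above the vessel members in every library. It had 3.76, 3.99 and 5.56 CPM per kb after pup exposure and 20.8, 23.4 and 23.1 CPM per kb after control exposure. The next of these levels among vessel genes was that of Flt1 in every library, at 1.77, 0.995 and 0.629 CPM per kb after pup exposure and 0.249, 0.636 and 0.855 CPM per kb after control exposure. S1pr1 was thus 2.12, 4.01 and 8.84 times the highest vessel member after pup exposure, and 83.4, 36.7 and 27.0 times it after control exposure. S1pr3 came next to S1pr1, with group means of 3.45 CPM per kb after pup exposure and 2.36 CPM per kb after control exposure. The other levels of the 10 genes ran from 1.13 (Flt1) to 0.223 CPM per kb (Tie1) in the pup exposure means and from 0.580 (Flt1) to 0.0754 CPM per kb (Cdh5) in the control exposure means, and below Flt1 neighbours in that order did not differ beyond their spread over libraries. In the pup exposure group S1pr1 and S1pr3 overlapped on this scale, with S1pr3 at 1.09, 4.94 and 4.31 CPM per kb.

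A wider list of 36 endothelial genes, none of them among the 10, showed no shared direction. Among the 32 tested, values lay above 0 for 18 and below 0 for 14, and the median log2 fold change was 0.24. It was -0.34 when pup exposure replicate 1 was left out and -0.10 when pup exposure replicate 3 was, and 0.15 and 0.01 when control exposure replicates 1 and 3 in turn were. The summed level was 155 to 215 CPM after pup exposure and 196 to 240 CPM after control exposure, and the ranges overlapped. EdgeR called 0 at an adjusted p under 0.05. Its unadjusted p-values under 0.05 were found for 1 gene with higher values (6.31% of all genes) and 1 with lower values (4.67% of all genes). DESeq2, which gave no adjusted p for 14, called 0, as did limma-voom. The gene with the smallest p was Nos3, the endothelial nitric oxide synthase, at 0.856, 0.636 and 1.88 CPM after pup exposure against 9.39, 3.94 and 3.28 CPM after control exposure (log2 fold change -2.30, SE 0.78, edgeR adjusted p = 0.424). Notch4, a Notch receptor of endothelium, also had lower values, 0, 0.530 and 1.33 CPM after pup exposure against 2.74, 2.95 and 4.21 CPM after control exposure (log2 fold change -2.39, SE 1.19, edgeR adjusted p = 0.481). Neither gene passed the threshold.

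Podxl, a sialomucin of the vessel lining that other epithelia also make, had higher values, 11.8, 6.01 and 5.48 CPM after pup exposure against 1.96, 4.12 and 0.780 CPM after control exposure (log2 fold change 1.74, SE 0.69, edgeR adjusted p = 0.431). Fli1, an ETS transcription factor of endothelium and blood cells, had 5.78, 8.63 and 6.71 CPM after pup exposure and 3.05, 2.60 and 3.74 CPM after control exposure (log2 fold change 1.17, SE 0.55, edgeR adjusted p = 0.461). In all, 2 of the 32 genes had every pup exposure library above every control exposure library (6.25%, against 10.1% of all genes), and 4 had them below (12.5%, against 9.6%). The 4 were Nos3, Notch4, Ecscr and Rasip1, the last pair named after their values were seen. Ecscr, an endothelial surface protein and the most abundant gene of the list, averaged 40.4 ± 13.7 CPM after pup exposure and 69.6 ± 25.2 CPM after control exposure (SD, n = 3 each), and Rasip1, a Ras-binding protein of vessel lumen formation, 13.5 ± 4.40 and 20.8 ± 2.19 CPM in the same order.

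**Figure D3:**
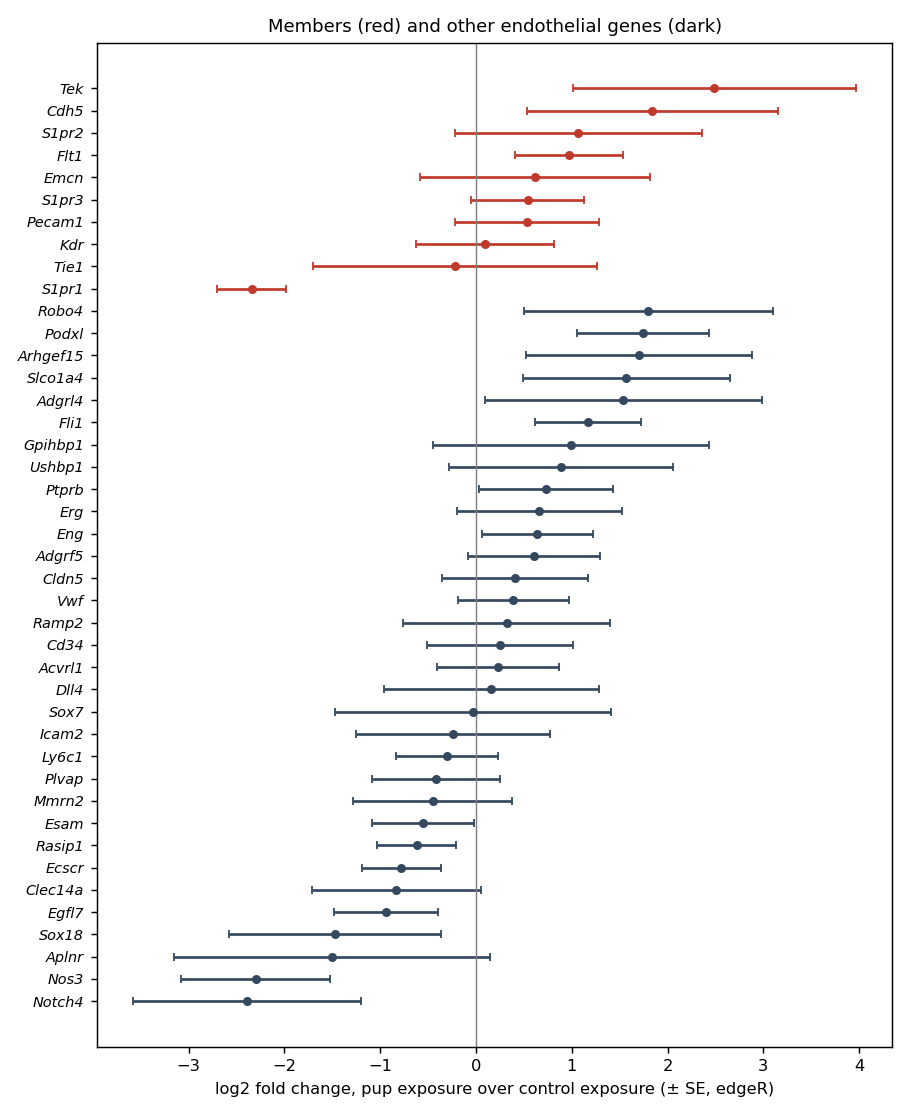
EdgeR log2 fold change, pup exposure over control exposure, with its SE, for the 10 genes (top, red) and for 32 other endothelial genes (below, dark), each block sorted by value. S1pr1 is at -2.34, the other 9 genes lie between -0.22 and 2.49, and the endothelial list spreads over both sides of 0 from -2.39 to 1.80.

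Lymphatic endothelial genes were low, as the vessel members were. Of 6 lymphatic genes 4 were tested, all 4 with a positive log2 fold change and a median of 1.06, and their summed level was 12.6 to 17.1 CPM after pup exposure against 3.76 to 11.3 CPM after control exposure. None passed the threshold in edgeR at an adjusted or an unadjusted p under 0.05, limma-voom called 0, and DESeq2 called 0 but gave an adjusted p for 1 of the 4. The hyaluronan receptor Lyve1 had 2.03, 0.495 and 0.987 CPM after pup exposure and 0, 1.52 and 0 CPM after control exposure. The other tested genes reached higher levels, Reln 12.4 CPM in pup exposure replicate 2, Mmrn1 6.48 CPM in pup exposure replicate 1 and Pdpn 4.79 CPM in pup exposure replicate 3. Prox1, the transcription factor of lymphatic identity, was too low to be tested, and the chemokine gene Ccl21a held no read in any library.

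The genes that make, degrade and carry S1P were measured in the same fit. Of 16 such genes 13 were tested, and 7 lay above 0 and 6 below, around a median log2 fold change of 0.05. EdgeR called 0 at an adjusted p under 0.05, and 1 gene, Sgpp2, was higher at an unadjusted p under 0.05, as were 6.31% of all genes. DESeq2, which gave no adjusted p for 3, and limma-voom called 0. Sgpp2, an S1P phosphatase, had 12.2, 27.5 and 27.9 CPM after pup exposure, against 5.01, 15 and 7.96 CPM after control exposure (log2 fold change 1.27, SE 0.52, edgeR adjusted p = 0.437). Its groups overlapped through pup exposure replicate 1. Among the kinases that make S1P, Sphk1 had 0, 1.13 and 2.02 CPM after pup exposure against 4.23, 4.74 and 2.81 CPM after control exposure (log2 fold change -1.89, SE 1.14, edgeR adjusted p = 0.539). All its pup exposure values lay below its control exposure values, at few reads.

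Sphk2, the other kinase, had 1.02, 26.1 and 18.9 CPM after pup exposure and 26.9, 22.4 and 20.3 CPM after control exposure, with pup exposure replicate 1 alone at a low level (log2 fold change -0.60, SE 0.76, edgeR adjusted p = 0.781). Sgpl1, the lyase that degrades S1P irreversibly, had 49.2, 65.7 and 48.9 CPM after pup exposure and 42.3, 33.6 and 34.9 CPM after control exposure, without overlap (log2 fold change 0.56, SE 0.34, edgeR adjusted p = 0.542). The endothelial S1P exporter Spns2 had 15, 14.0 and 9.92 CPM after pup exposure and 9.78, 11.9 and 9.20 CPM after control exposure. Its red cell counterpart Mfsd2b and the S1P carrier Apom were too low to be tested, at no more than 0.778 and 0.197 CPM. Among the lipid phosphatases, Plpp3 had a log2 fold change of 0.52, Plpp2 of -0.52, Plpp1 of -0.49 and Sgpp1 of 0.34, and among the ceramidases that release sphingosine, Acer2 one of 1.71 (SE 1.71), Asah2 of -0.20, Acer3 of -0.08 and Asah1 of 0.05, with edgeR adjusted p from 0.600 to 0.961. Acer1 was too low to be tested.

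Among 16 genes of S1P receptor coupling and regulation, 14 lay above 0, and the median log2 fold change was 0.55. Of all genes tested, 48.5% lay below 0. None of the 16 passed the threshold, and 1 (Gnaq) was higher at an unadjusted p under 0.05 in edgeR, as were 6.31% of all genes. DESeq2, which gave no adjusted p for 1, and limma-voom called 0. Gnaq, a Gq subunit, had 45.3, 120 and 67.4 CPM after pup exposure and 47.7, 25.2 and 29.8 CPM after control exposure (log2 fold change 1.18, SE 0.44, edgeR adjusted p = 0.424). Stat3, a transcription factor that S1PR1 signalling can activate, was at 0.72 (SE 0.37, edgeR adjusted p = 0.489) and the kinase Jak2 at 0.69 (SE 0.37, adjusted p = 0.508). Grk2, the kinase that phosphorylates occupied receptors for internalization, was one of the 2 genes below 0, at -0.62 (SE 0.34, edgeR adjusted p = 0.513), with 48.4, 43.6 and 39.1 CPM after pup exposure against 55.9, 78.5 and 67.2 CPM after control exposure. Klf2, a flow-responsive factor that activates S1pr1 transcription in endothelium and T cells, was low, at 2.03, 1.77 and 2.96 CPM after pup exposure and 1.41, 1.25 and 3.28 CPM after control exposure (log2 fold change 0.20, SE 0.83, edgeR adjusted p = 0.939). It was not named by the rule for listed genes and was added after its values were seen.

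**Figure D4:**
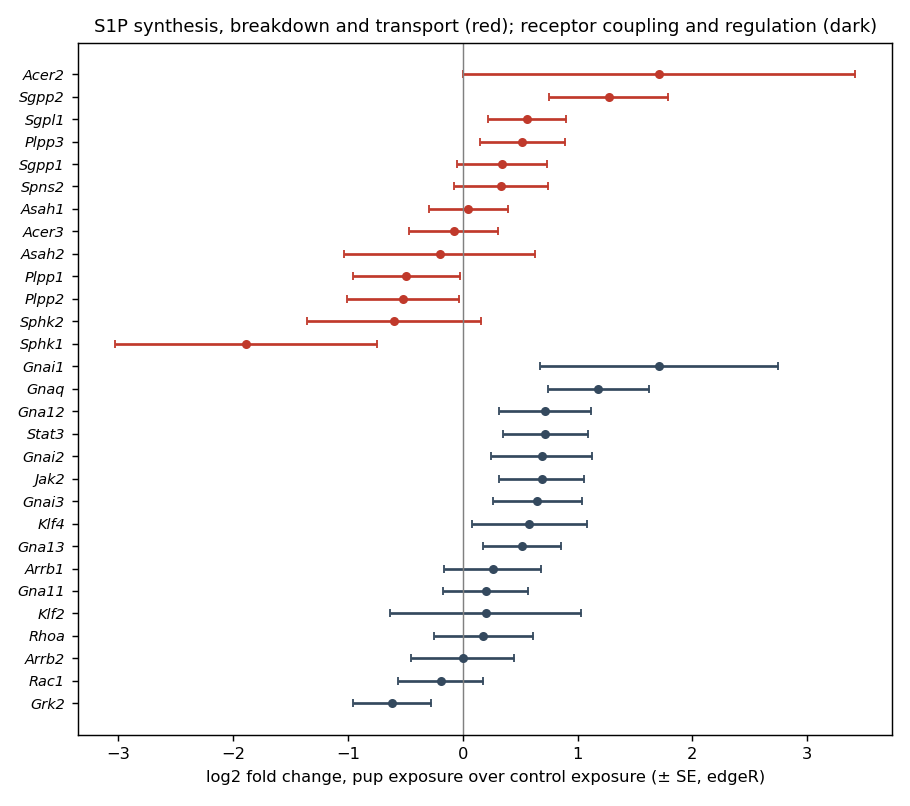
EdgeR log2 fold change, pup exposure over control exposure, with its SE, for 13 genes of S1P synthesis, breakdown and transport (top, red) and 16 genes of receptor coupling and regulation (below, dark). Values run from -1.89 (Sphk1) to 1.71 (Acer2 and Gnai1), and none passed the edgeR threshold.

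Ligands and co-receptors of the VEGF and angiopoietin pathways lay above 0 for 5 and below 0 for 4 of 9 tested genes, around a median log2 fold change of 0.43. EdgeR called 0 at an adjusted or an unadjusted p under 0.05, and DESeq2, which gave no adjusted p for 4, and limma-voom called 0. Pgf, the placental growth factor that binds Flt1, had 0, 1.06 and 0.691 CPM after pup exposure and 4.54, 0.627 and 3.12 CPM after control exposure (log2 fold change -2.21, SE 1.29, edgeR adjusted p = 0.528). The VEGF co-receptors Nrp2 and Nrp1, which also serve axon guidance, were the most abundant of the list, with log2 fold changes of 0.47 (SE 0.35, edgeR adjusted p = 0.615) and 0.43 (SE 0.35, adjusted p = 0.644). Vegfd, a ligand of lymphatic growth, was at -0.76 (SE 0.76, edgeR adjusted p = 0.712).

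Mural cells, which wrap the endothelium, did not show a common direction. Of 11 tested pericyte and smooth muscle genes, 5 were positive and 6 negative with a median of -0.09, and their summed level was 1090 to 1290 CPM after pup exposure and 1090 to 1580 CPM after control exposure. EdgeR called 0 at an adjusted p under 0.05, and 1, Rgs5, was higher at an unadjusted p under 0.05, as were 6.31% of all genes. DESeq2, which gave no adjusted p for 3, and limma-voom called 0. Rgs5, a pericyte regulator of G protein signalling, had 53.6, 137 and 118 CPM after pup exposure and 47.3, 44.5 and 54.1 CPM after control exposure (log2 fold change 1.08, SE 0.41, edgeR adjusted p = 0.424). Tagln, an actin-binding protein of smooth muscle, was at 0.97 (SE 0.46, adjusted p = 0.463), while Abcc9, a potassium channel subunit of pericytes, was at -1.31 (SE 0.80, adjusted p = 0.545) and Cnn1, smooth muscle calponin, at -0.51 (SE 0.42, adjusted p = 0.645).

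Red blood cell genes had lower values after pup exposure. All 4 tested red cell genes had a negative log2 fold change, with a median of -1.50, and 3 of the 4 (75%, against 9.6% of all genes) had every pup exposure library below every control exposure library. The summed level was 167, 54.5 and 125 CPM after pup exposure, against 205, 258 and 590 CPM after control exposure. EdgeR called 0 at an adjusted p under 0.05 and 2, the haemoglobin chains Hbb-bs (adjusted p = 0.405) and Hba-a1 (adjusted p = 0.424), lower at an unadjusted p under 0.05 (4.67% of all genes), and DESeq2 and limma-voom called 0. Of the list, Hba-a2 and Slc4a1 were too low to be tested.

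Sustentacular cell and macrophage lists had summed levels that were lower after pup exposure without overlap. Of 6 tested sustentacular cell genes, 5 were negative with a median of -0.67, and the summed level was 1580 to 2320 CPM after pup exposure against 3880 to 4480 CPM after control exposure. Cbr2, a carbonyl reductase and the most abundant of them, had 1530, 904 and 1270 CPM after pup exposure and 3190, 2830 and 3050 CPM after control exposure (log2 fold change -1.29, SE 0.42, edgeR adjusted p = 0.412, DESeq2 adjusted p = 0.0338). Most of the gap in the sustentacular sum lay in Cbr2. Its means were 1230 CPM after pup exposure and 3020 CPM after control exposure, where those of the sum were 1940 and 4120 CPM. Of 10 macrophage genes, 8 were negative with a median of -0.24, and the summed level was 70.5 to 85.4 CPM after pup exposure against 109 to 132 CPM after control exposure. Cd68, a lysosomal glycoprotein of macrophages, had 9.37, 12.7 and 15.4 CPM after pup exposure and 44.8, 32.7 and 36 CPM after control exposure (log2 fold change -1.60, SE 0.38, edgeR adjusted p = 0.375, DESeq2 adjusted p = 0.0167). Much of the gap in the macrophage sum lay in this 1 gene. Its means were 12.5 CPM after pup exposure and 37.8 CPM after control exposure, where those of the sum were 77.8 and 118 CPM. Of the other macrophage genes, Aif1 was at -0.92, its groups apart, and overlapping groups were found for Fcgr3 at -0.99, C1qb at -0.54 and the remaining 6, which lay between -0.28 and 0.14. In both lists edgeR called 0 at an adjusted p under 0.05, with 2 sustentacular genes and 1 macrophage gene lower at an unadjusted p under 0.05 (4.67% of all genes), while DESeq2 called 1 lower in each (0.626% of all genes) and limma-voom 0. The part of red cells, sustentacular cells, macrophages, the other cell types listed here and depth in the S1pr1 difference was not tested. Every pup exposure library was deeper than every control exposure library, so depth and exposure cannot be told apart. With every library thinned to the smallest total, the S1pr1 log2 fold change was -2.30.

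Most genes of lymphocytes, in which S1pr1 is also known, were low in the precipitates. Without input RNA these levels do not give the number of such cells. Of 12 lymphocyte genes only Ptprc, a marker of all leukocytes, and Cd3g, a T cell receptor subunit, were tested. Ptprc had 10.3, 7.21 and 4.84 CPM after pup exposure and 10.3, 7.88 and 11.9 CPM after control exposure (log2 fold change -0.42, SE 0.47, edgeR adjusted p = 0.742), and Cd3g at most 1.64 CPM, in control exposure replicate 1. Summed over the list, levels were 7.31 to 13.1 CPM after pup exposure and 12.4 to 14.9 CPM after control exposure, and edgeR, DESeq2 and limma-voom called 0. The B cell gene Ms4a1 reached at most 0.179 CPM, in control exposure replicate 2. Glial genes summed to 605 to 645 CPM after pup exposure and 434 to 734 CPM after control exposure, with 6 of 10 negative, and fibroblast genes to 545 to 781 and 647 to 814 CPM in the same order, with 3 of 6 negative. Of 8 listed vomeronasal neuron genes 7 were in the count table, and they summed to 1420 to 1600 CPM after pup exposure and 1390 to 1830 CPM after control exposure. Of these, 4 of 7 were negative, and 2, Gap43 and Stmn2, were lower without overlap (28.6%, against 9.6% of all genes). Omp, the marker of mature chemosensory neurons, was among the abundant ones at 662 to 830 CPM after pup exposure and 767 to 920 CPM after control exposure. In these 3 lists edgeR called 0 at an adjusted p under 0.05, with 1 glial gene, Fabp7 (log2 fold change -1.05), and 1 neuronal gene, Gap43 (-1.22), lower at an unadjusted p under 0.05 (4.67% of all genes), and DESeq2 and limma-voom called 0.

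Genes whose profile over the 6 libraries lay nearest to that of S1pr1 were found by the root mean square difference of log2 CPM centred on each gene's mean, among genes with a mean of at least 5 CPM. The 8 nearest were C1rl, Pigb, Sun2, B3gnt7, Slc7a6, Sdr39u1, Clasp2 and Phf11d, at differences of 0.247 to 0.349 log2 units. As follows from the choice of S1pr1, all 8 were lower after pup exposure with no overlap between groups, with log2 fold changes from -2.55 (Pigb, an enzyme of GPI anchor synthesis) to -1.82 (Sdr39u1). C1rl, a complement C1r-like protease and the nearest, had 1.77, 2.44 and 2.52 CPM after pup exposure and 9.39, 8.15 and 10.8 CPM after control exposure. Clasp2, a microtubule-binding protein, was the most abundant of the 8, at 74.7, 93.6 and 63.1 CPM after pup exposure and 402, 414 and 383 CPM after control exposure. None of the 8 is on the endothelial lists, but their absence was partly set by the floor of 5 CPM. That floor left every vessel member other than Flt1 out of the search. It also left out Nos3 and Notch4, with log2 fold changes of -2.30 and -2.39. By the same measure, over all 15497 other genes tested, the 9 further members ranked from 7994 (Kdr, a difference of 1.38) to 15458 (Tek, 2.91), with Pecam1 at 10340, S1pr3 at 10894 and Flt1 at 13410. These ranks had no floor on CPM, so counting noise adds to the difference for members with few reads. They also contain the S1pr1 difference that chose the gene, and are descriptions only.

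The contrast between S1pr1 and the vessel members was recomputed under each way of scaling, filtering and testing. The log2 fold change of S1pr1 ran from -2.52 (without pup exposure replicate 3) to -2.07 (library totals without TMM), and the median of the 7 vessel members from 0.20 (without control exposure replicate 1) to 1.32 (without control exposure replicate 3). With library totals only, the median of all genes moved to 0.31, and relative to it S1pr1 was at -2.38 and the vessel median at 0.83.

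**Figure D5:**
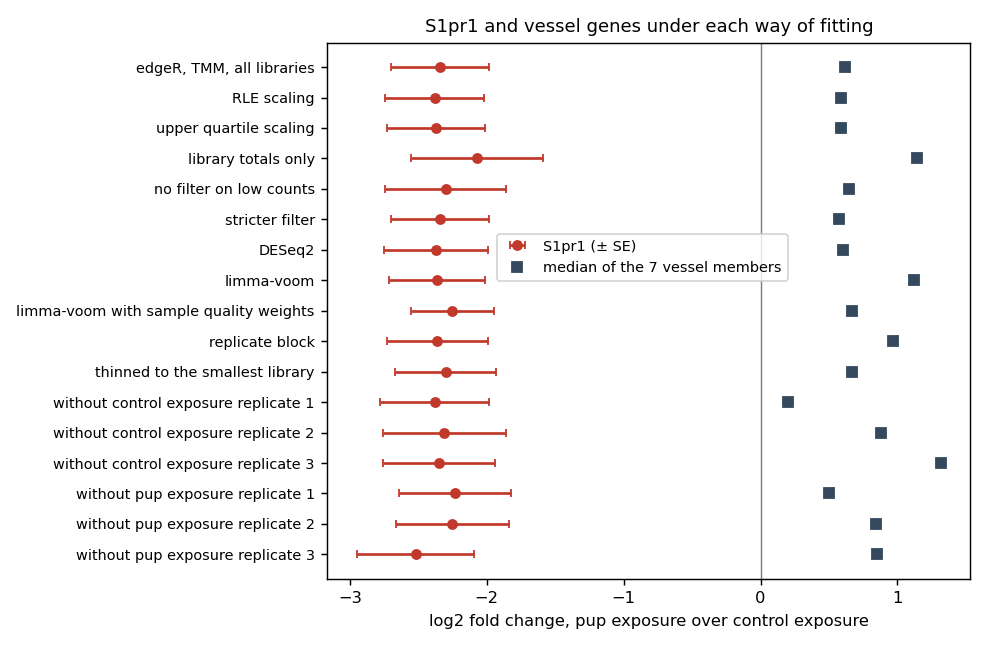
Log2 fold change, pup exposure over control exposure, of S1pr1 with its SE (circles) and the median of the 7 vessel members (squares, 6 under the stricter filter, which removed Cdh5) under each scaling, filter, tool and left-out library. S1pr1 lies between -2.52 and -2.07 and the vessel median between 0.20 and 1.32.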

How the data were processed

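Vomeronasal organ lysates were precipitated with an antibody to phosphorylated S6 and made into libraries with a low-input SMARTer kit, per the labels' protocols. The authors deposited 1 table of raw read counts per Ensembl gene for the 6 libraries. The submitters' processing notes name GRCm38 as the genome build. Which aligner, counter, strand setting and gene annotation they used was not stated in what was read here. Of 38561 gene IDs, 36639 were named from GENCODE M21.

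From these counts, edgeR 4.0.16 (R 4.3.3) fitted an intercept and the group by quasi-likelihood on all genes kept by filterByExpr (minimum count 10, minimum total 15), with TMM scaling and p-values adjusted by the Benjamini-Hochberg method over all 15498 genes at a threshold of 0.05. SEs come from the F statistic. No pair of libraries of 1 group matched within sampling noise (a chi-square of 86.2 to 300.0 for each degree of freedom). DESeq2 1.42.0, limma-voom (limma 3.58.1) and other scalings and filters were alternatives.

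The members and lists were chosen with earlier results of these data known. Named genes were the 10 members, the S1P receptors and S1P metabolism genes, up to 4 genes of smallest p from each other list, and the 8 genes nearest S1pr1 in profile. Not every gene the rule allows is named. Ecscr, Rasip1, Klf2 and single low or abundant markers (Prox1, Ccl21a, Omp, Ms4a1, Hba-a2, Slc4a1) were added after their values were seen.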

Additional observations from a re-analysis of the deposited data

How the results depend on the processing

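EdgeR called 0 genes higher and 0 lower over the whole table with TMM, with other scalings, under a stricter filter (50 reads in all, and 1 CPM or more in any 3 libraries), with thinning, with the block and with each library left out. Without a filter it called 61 higher and 59 lower, DESeq2 50 and 77, and limma-voom 1 and 7. Adding quality weights to limma-voom gave 1 and 11. The S1pr1 log2 fold change was -2.07 with library totals only, and with single libraries left out it ran from -2.52 to -2.23. Per vessel read it was -3.20, -2.13 when scaled to the other endothelial genes instead, and -3.74 to -2.69 per vessel read with single libraries left out. The vessel median ran from 0.20 to 1.32 with single libraries left out. The median of the other endothelial genes ran from -0.34 to 0.30 in the same fits, with -0.34 when pup exposure replicate 1 and -0.10 when pup exposure replicate 3 was dropped. With single libraries left out Kdr ran from -0.21 to 0.58, turning below 0 when control exposure replicate 1 (-0.21) or pup exposure replicate 1 (-0.20) was dropped, and Tie1 from -1.04 to 0.88, above 0 when control exposure replicate 2 (0.88) or pup exposure replicate 1 (0.35) was dropped. The cause of these shifts was not tested. Counts of positive genes under each fit were added after seeing the data and ran from 5 to 7 for the vessel members and from 15 to 20 for the other endothelial genes.

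Same-numbered libraries share only a number. Their deviations from the group means correlated at -0.04, 0.18 and 0.07, and not every library correlated best with its own number. With the replicate number as a block, S1pr1 was at -2.36 (-3.21 per vessel read), the vessel median at 0.97 and the other endothelial median at 0.21, and edgeR called 0 genes.

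The vessel members held few reads, 8 to 213 in the 3 control exposure libraries together. Thinning every library to the smallest total left the SE of Flt1, the vessel member with the most reads, at 0.54, against 0.56 before, and the common biological coefficient of variation was 0.535.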
